A study of Homo sapiens with 4 samples.

Results

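The mRNAs of 54 proteins that shorten, decap and degrade messenger RNA were followed in a clone of Huh7 cells, a human hepatoma line, labelled as a double knockout of the decay factors TTP and BRF1. The members were taken by gene symbol from the 42169 gene rows of the deposited count table, in which all 54 were present, and all 54 were among the 13359 genes tested. They comprise 10 subunits of the CCR4-NOT deadenylase, the 3 other deadenylase genes PAN2, PAN3 and PARN, 8 decapping enzymes and activators, the 7 genes of the LSM1-7 ring, the exonucleases XRN1 and XRN2, 9 core and 3 nuclease subunits of the exosome, 2 SKI complex subunits, 7 factors of nonsense-mediated decay (NMD) and 3 genes of miRNA silencing.

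The DKO group was clone 18, whose label is Brf1/TTP DKO, and the control group was clone 1, labelled WT. Each clone gave 2 libraries, named here by the replicate number of their titles. Cells of both clones had been kept in DMSO for 3 h and then received actinomycin D, which stops transcription, (5 µg/ml, 10 min) ahead of collection, so no library came from cells without the inhibitor. Each genotype is 1 clone, so clone and genotype cannot be told apart, and no label says whether a clone's libraries stem from separate cultures. In bulk RNA, a change in the share of cells that carry a transcript and a change in transcript per cell cannot be told apart.

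Most mRNAs are degraded after their poly(A) tail has been removed. PAN2-PAN3 trims long tails and CCR4-NOT, built on the scaffold CNOT1, removes the rest. The body is then either decapped by DCP2 with help from DCP1, EDC3, EDC4, PATL1, DDX6 and the LSM1-7 ring and digested from the 5′ end by XRN1, or degraded from the 3′ end by the exosome with the SKI complex. TTP, the product of ZFP36, and BRF1, here the product of ZFP36L1, bind AU-rich sequences of mRNAs and bring CCR4-NOT to them, and Argonaute proteins do so through TNRC6 proteins. The comparison shows whether the mRNAs of these enzymes and cofactors differed between the clones.

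The libraries held 10271428 and 16430228 gene counts in DKO and 9685798 and 12507263 in control, and a member had between 56 and 6842 counts in a library. All 12 hepatocyte and hepatoma markers, among them ALB and AFP, were above 10 CPM (each gene's counts scaled to the same total of gene counts in every library) in every library. The marker lists of other cell types summed to 139.7 to 142.2 CPM in DKO and 95.5 to 142.7 CPM in control for fibroblasts, to 109.3 to 124.8 and 75.64 to 77.54 CPM for leukocytes, and to 27.16 to 28.85 and 6.316 to 7.847 CPM for endothelium. Of the defining leukocyte and endothelial markers, CD3E, CDH5, VWF and KDR had 0 counts in all 4 libraries, and LYZ and PECAM1 carried most of those sums. The mRNAs of the knocked-out genes were not lower in DKO and so do not check the labels, which do not give the edited positions: ZFP36 was at 37.48 and 36.21 CPM in DKO and 30.04 and 23.35 CPM in control, and ZFP36L1 at 146.9 and 118.1 CPM in DKO and 135.2 and 108.9 CPM in control.

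Decay machinery mRNA took nearly the same share of the gene counts in both clones. The 54 members together took 5020 and 4707 CPM in the DKO libraries and 4968 and 4783 CPM in the control libraries, and these ranges overlapped. Between the clones, EXOSC7, a subunit of the exosome core, fell in DKO, and no other member passed the threshold (edgeR quasi-likelihood test, Benjamini-Hochberg adjusted p under 0.05 over all tested genes). Thus 0 members rose, where 2.24% of all tested genes did, and 1 of 54 (1.85%) fell, where 3.14% of all tested genes did. Before adjustment, 4 members had p under 0.05 and a higher level in DKO (7.41%, all genes 9.57%), and 3 had it with a lower level (5.56%, all genes 10.6%). DESeq2 called 1 member higher and 2 lower (5.56% together, all genes 5.18%), and limma-voom called 0 in either direction (all genes 5.25%).

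The median log2 fold change of the members, DKO over control, was 0.04, beside 0.00 for all tested genes, and 31 were positive and 23 negative. No member differed by more than 1 log2 unit (2-fold), whereas 5.83% of all tested genes did. Among the 9481 tested genes within the members' range of mean CPM, 2.55% did. For 45 of the 54 members the unadjusted 95% interval of the fold change lay within 1 log2 unit on either side of 0, and for 47 it included 0. Differences of 2-fold were thus outside the interval for most members. Non-overlapping library values were seen for 23 members, with both DKO libraries above both control libraries for 11 (20.4%, all genes 23.7%) and below for 12 (22.2%, all genes 26.2%). All these values are relative to the median gene: with totals of the ERCC spike-in RNAs as library sizes, the median of all genes moved to -0.68 and that of the members to -0.62, and 2 members, PATL1 and EXOSC1, kept a positive value.

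**Figure D1:**
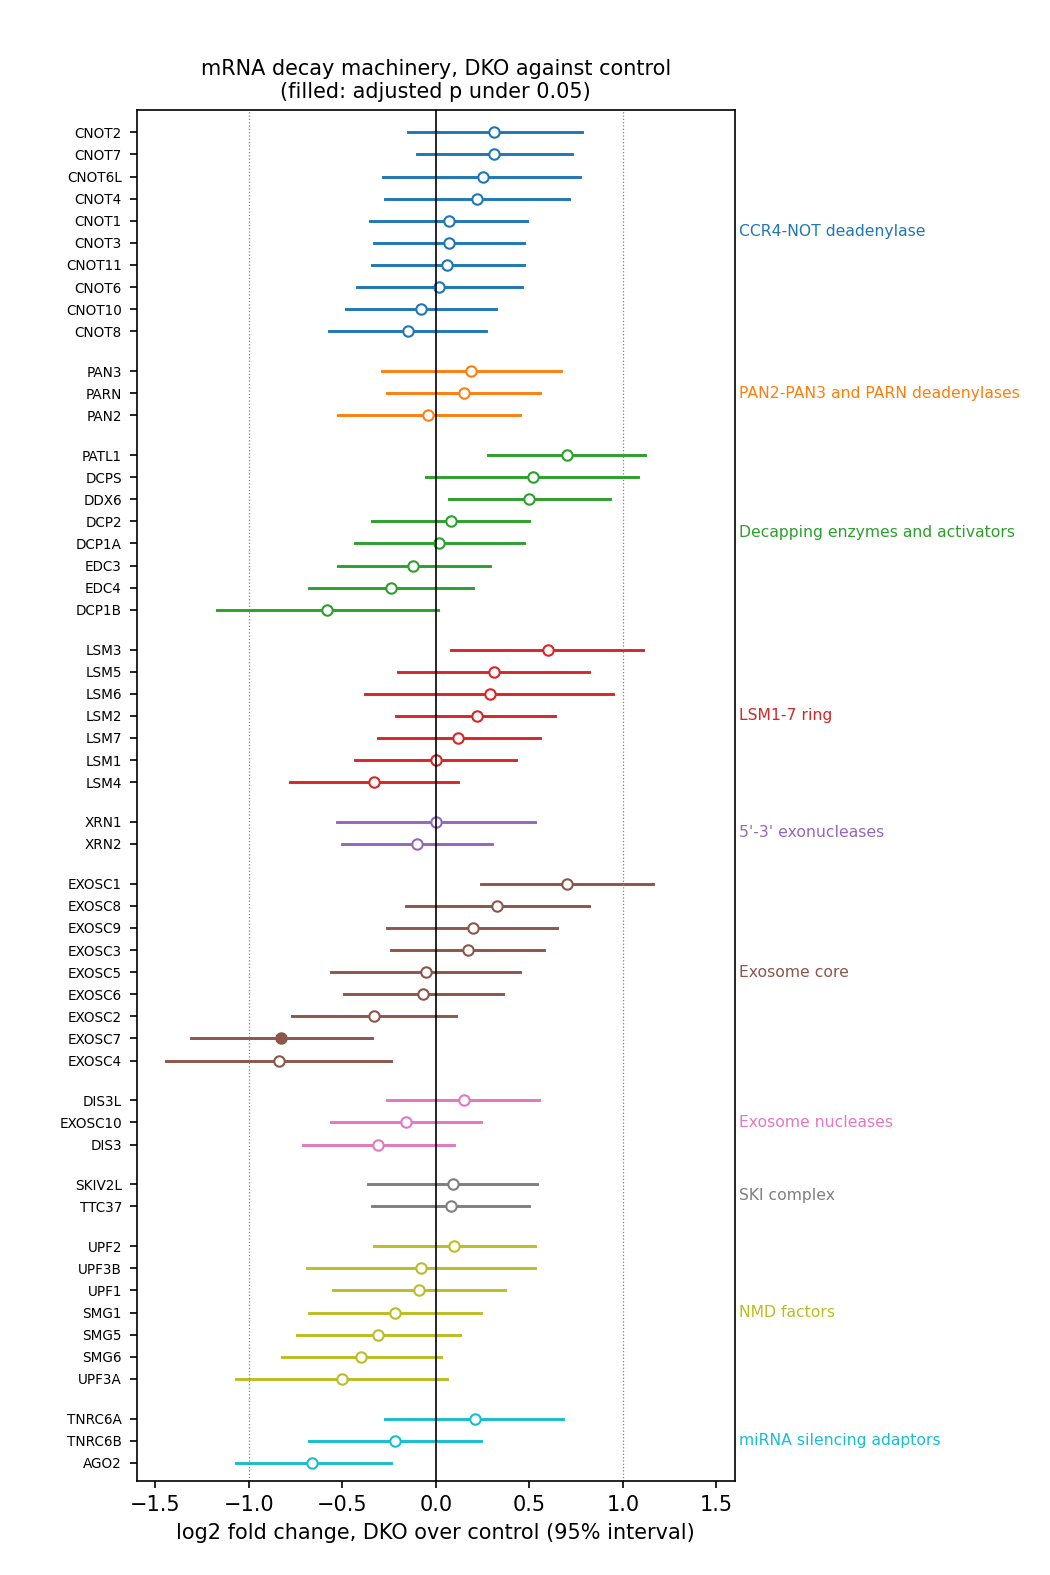
Log2 fold change, DKO over control, of the 54 members with unadjusted 95% intervals, grouped by complex. EXOSC7 at -0.83 is the only filled point (adjusted p under 0.05), and dotted lines mark 1 log2 unit. Values are relative to the median gene, and with ERCC totals 52 of the 54 are negative, all but PATL1 (0.06) and EXOSC1 (0.03). None of the 54 was called in that fit, and the spike-in share also differed between the libraries of a clone.

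AU-rich sequences are where TTP and BRF1 bind, so the 3′ UTRs of the members were searched for the 7-letter core TATTTAT, written as DNA, on the mRNA strand alone, counting overlapping matches. In the longest annotated 3′ UTR of each gene, 22 of 54 members (40.7%) held it, beside 36.1% of the 11902 tested genes with a 3′ UTR. The median 3′ UTR length was 1674 bases for members and 1662 for tested genes. Sites of only some members with the core are printed, and those of AGO2 and others are left out. The printed sites have 10 bases on each side and the core in capitals, in the 5′ to 3′ direction of the mRNA. They come from GENCODE release 29 transcripts on hg38. Printed are that of the decapping activator PATL1 and the 3 each of the decapping enzyme DCP2 and the exonuclease XRN1. A run of 3 sites in EXOSC6 follows, of which the last 2 overlap.
PATL1, chr11:59637888-59637914, minus strand: cccatacatgTATTTATgtggtcttca
DCP2, chr5:113014983-113015009, plus strand: ggagaaattcTATTTATtaatgaaagt
DCP2, chr5:113015203-113015229, plus strand: cttcgagccaTATTTATagttggtccc
DCP2, chr5:113020097-113020123, plus strand: aaggtgaagaTATTTATgctgagttat
XRN1, chr3:142310989-142311015, minus strand: gaatggctctTATTTATgtgtgtttta
XRN1, chr3:142310317-142310343, minus strand: tatatatataTATTTATtctttagttt
XRN1, chr3:142308152-142308178, minus strand: actcacttttTATTTATgtgttctatt
EXOSC6, chr16:70247254-70247280, minus strand: attttcagtaTATTTATtttatttatt
EXOSC6, chr16:70247245-70247271, minus strand: atatttatttTATTTATttattaatta
EXOSC6, chr16:70247241-70247267, minus strand: ttattttattTATTTATtaattatttt

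Members with and without the core had nearly the same median change. The median log2 fold change was 0.05 for the 22 members with TATTTAT and 0.03 for those without it, beside 0.04 and -0.03 for tested genes with and without it. AGO2 held 7 matches, the most of any member, and had a log2 fold change of -0.66. EXOSC6 held 6, at -0.07, and DCP2 and XRN1 held 3 each, at 0.08 and 0.00. PATL1, with 1 match, had the highest log2 fold change of a member that held the core, at 0.70. A match is a run of letters and was not tested for binding.

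The CCR4-NOT deadenylase had 10 members tested, of which 0 rose, 0 fell and 10 did not pass, with a median log2 fold change of 0.07. Its scaffold CNOT1, the most abundant member by CPM, had 465.4 and 416.4 CPM in DKO and 446.5 and 398.1 CPM in control. The libraries of the clones interleaved, and the log2 fold change was 0.07 (95% interval -0.35 to 0.49, edgeR adjusted p = 0.882). CNOT7, 1 of the nucleases of the complex, had 159.2 and 140.5 CPM in DKO and 138.1 and 105.1 CPM in control. Both DKO libraries were above both control libraries, but the upper control library lay close to the lower DKO library, and the log2 fold change of 0.31 (edgeR adjusted p = 0.398, SE 0.20) was the highest of the complex beside that of CNOT2 (0.31). The lowest was that of CNOT8 (-0.15), the close relative of CNOT7. The nucleases CNOT6 and CNOT6L had 0.02 and 0.25, and the non-catalytic subunits CNOT3, CNOT10 and CNOT11 had 0.07, -0.08 and 0.06. CNOT4, a ubiquitin ligase that associates with the complex, had 0.22.

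The other deadenylases did not pass either (0 of 3 in each direction, median 0.15). PARN, a poly(A)-specific nuclease that also acts on small RNAs, had 45.95 and 44.07 CPM in DKO and 40.27 and 41.50 CPM in control. Its groups did not overlap, but the difference was small, at 0.15 log2 units (95% interval -0.26 to 0.56, edgeR adjusted p = 0.729). PAN3, which holds the nuclease PAN2 on the poly(A)-binding protein, had 35.44 and 25.62 CPM in DKO and 30.56 and 23.43 CPM in control. The clones overlapped, with replicate 2 lower than replicate 1 in both, and the log2 fold change was 0.19 (edgeR adjusted p = 0.703). PAN2 had -0.04.

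Among the 8 decapping genes, 0 rose, 0 fell and 8 did not pass, and the median was 0.05. PATL1 (chromosome 11, 59636716 to 59668980, hg38), the scaffold that links the LSM1-7 ring to the decapping enzyme, had 252.4 and 204.0 CPM in DKO and 153.6 and 129.5 CPM in control. All DKO values were above all control values, and the log2 fold change of 0.70 (SE 0.20, 95% interval 0.28 to 1.12) missed the threshold narrowly (edgeR adjusted p = 0.0505). DESeq2 passed it (0.70, DESeq2 adjusted p = 0.0217), whereas limma-voom did not (limma-voom adjusted p = 0.0507), and with ERCC totals the value was 0.06. Leaving out 1 library at a time gave 0.56 to 0.83, which passed without control replicate 1 alone (0.79, edgeR adjusted p = 0.0145).

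DDX6 (chromosome 11, 118747766 to 118791149), the RNA helicase that binds PATL1 and CNOT1, had 267.1 and 244.3 CPM in DKO and 212.4 and 153.7 CPM in control. The groups did not overlap, and the spread within control was wider than within DKO. The log2 fold change was 0.50 (SE 0.20, edgeR adjusted p = 0.173), and -0.14 with ERCC totals. The catalytic subunit DCP2 had 210.8 and 164.0 CPM in DKO and 193.3 and 164.5 CPM in control. These values interleaved, at a log2 fold change of 0.08 (95% interval -0.34 to 0.50, edgeR adjusted p = 0.875). Its cofactors DCP1A (0.02), EDC3 (-0.12) and EDC4 (-0.24) and the cap-scavenging enzyme DCPS (0.52) did not pass, nor did DCP1B (-0.58), which had 56 counts in its smallest library.

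The LSM1-7 ring binds the shortened tail together with PATL1, and LSM2 to LSM7 also belong to the nuclear LSM2-8 ring. Of 7 members 0 rose, 0 fell and 7 did not pass, with a median of 0.22. LSM3 (chromosome 3, 14178358 to 14201119) had 141.8 and 169.4 CPM in DKO and 135.1 and 74.20 CPM in control. Control replicate 2 stood far below the other 3 libraries, and the log2 fold change of 0.60 (edgeR adjusted p = 0.174, SE 0.24) was 0.24 without it and 1.05 without control replicate 1 (edgeR adjusted p = 0.000554). With ERCC totals it was -0.03. LSM4 had the lowest value of the ring, with 120.7 and 156.8 CPM in DKO and 158.1 and 193.6 CPM in control. Its clones did not overlap but lay close together, at -0.33 (edgeR adjusted p = 0.405). LSM2 had 50.63 and 62.51 CPM in DKO and 48.42 and 49.89 CPM in control, at 0.22 (edgeR adjusted p = 0.589). LSM1, the subunit that sets the cytoplasmic ring apart from the nuclear one, had 0.00 (95% interval -0.43 to 0.43), and LSM5, LSM6 and LSM7 had 0.31, 0.29 and 0.12.

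Neither of the 5′-3′ exonucleases passed (0 of 2 in each direction). XRN1, the cytoplasmic enzyme that digests decapped mRNA, had 44.10 and 31.89 CPM in DKO and 48.73 and 27.90 CPM in control. The 2 control libraries enclosed both DKO libraries, and the log2 fold change was 0.00 (95% interval -0.53 to 0.53, edgeR adjusted p = 0.996). XRN2, its nuclear relative, had 257.6 and 251.9 CPM in DKO and 275.1 and 275.8 CPM in control, with a log2 fold change of -0.10 (95% interval -0.50 to 0.30, edgeR adjusted p = 0.817).

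The exosome core was the group with the widest spread of changes. Of its 9 members 0 rose, 1 fell and 8 did not pass, and the median was -0.05. EXOSC7 (chromosome 3, 44975241 to 45036066), 1 of the subunits of the ring, fell to 16.84 and 18.44 CPM in DKO, against 27.15 and 35.74 CPM in control. Both DKO libraries were well below both control libraries, a 1.77-fold lower level (log2 fold change -0.83, SE 0.23, 95% interval -1.31 to -0.34, edgeR adjusted p = 0.0471). The call was lost without control replicate 2 (-0.58, edgeR adjusted p = 0.173), without DKO replicate 1 (-0.74, edgeR adjusted p = 0.434), without DKO replicate 2 (-0.92, edgeR adjusted p = 0.255), with limma-voom (-0.81, limma-voom adjusted p = 0.0532) and with ERCC totals (-1.56, edgeR adjusted p = 0.0834). Its exons share 13.6% of their length with the same-strand gene CLEC3B, whose own mean was 0 CPM.

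EXOSC4 (chromosome 8, 144078626 to 144080647), another ring subunit, had 14.41 and 21.91 CPM in DKO and 23.95 and 41.66 CPM in control. The groups did not overlap, but the highest DKO library came close to the lowest control library, and the log2 fold change of -0.84 (edgeR adjusted p = 0.101, SE 0.28) did not pass. Without 1 library it was -0.35 (without control replicate 2) to -1.21 (without DKO replicate 2), and it passed without control replicate 1 alone (-1.20, edgeR adjusted p = 1.16e-05). EXOSC1 (chromosome 10, 97436142 to 97446017), a cap subunit, had 25.22 and 24.22 CPM in DKO and 16.21 and 14.55 CPM in control. The libraries of each clone lay close together and the clones apart, with a log2 fold change of 0.70 (edgeR adjusted p = 0.0764, SE 0.22), and 0.03 with ERCC totals. EXOSC5, the core subunit with the highest level per length, had 37.87 and 54.96 CPM in DKO and 40.88 and 56.29 CPM in control, at -0.05 (edgeR adjusted p = 0.928). The cap subunits EXOSC2 and EXOSC3 had -0.33 and 0.17, and the ring subunits EXOSC6, EXOSC8 and EXOSC9 had -0.07, 0.33 and 0.20. The 9 subunits summed to 362.7 and 420.8 CPM in DKO and 369.1 and 453.7 CPM in control, so the sums of the clones overlapped while the log2 fold changes of single subunits spanned -0.84 to 0.70.

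None of the 3 exosome nucleases passed (median -0.16). DIS3, the main nuclease of the exosome, had 72.04 and 67.62 CPM in DKO and 94.57 and 79.55 CPM in control. The DKO libraries were below the control libraries, at -0.31 (SE 0.19, edgeR adjusted p = 0.398). EXOSC10, the nuclease concentrated in the nucleus and nucleolus, had 121.6 and 115.9 CPM in DKO and 127.0 and 139.7 CPM in control, at -0.16 (edgeR adjusted p = 0.698). The antisense gene AL109811.1 covers 36.6% of its exons and had 0.169 CPM on average. DIS3L, the cytoplasmic relative of DIS3, had 0.15. In the SKI complex, which feeds mRNA into the cytoplasmic exosome, the helicase SKIV2L had 67.37 and 84.66 CPM in DKO and 63.50 and 79.87 CPM in control. Its values overlapped, at 0.09 (95% interval -0.36 to 0.54, edgeR adjusted p = 0.856), and the scaffold TTC37 had 0.08.

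NMD removes mRNAs with premature stop codons, and 6 of its 7 members had negative values, with a median of -0.22, the lowest of any group beside that of miRNA silencing. Still 0 rose, 0 fell and 7 did not pass. The helicase UPF1 had 289.2 and 289.7 CPM in DKO and 254.5 and 363.9 CPM in control. The DKO libraries lay between the control libraries, at -0.09 (95% interval -0.55 to 0.37, edgeR adjusted p = 0.865). SMG6, the endonuclease of the pathway, had 35.73 and 35.42 CPM in DKO and 43.67 and 50.45 CPM in control. The clones did not overlap, and the log2 fold change was -0.40 (95% interval -0.82 to 0.03, edgeR adjusted p = 0.280). SMG5, an adaptor for phosphorylated UPF1 and the NMD factor with the highest level per length, had 218.9 and 247.7 CPM in DKO and 255.1 and 324.4 CPM in control, at -0.31 (edgeR adjusted p = 0.436). UPF3A had 15.97 and 11.69 CPM in DKO and 15.38 and 23.51 CPM in control. Control replicate 2 stood above the other libraries, and the log2 fold change of -0.50 (edgeR adjusted p = 0.301) was -0.13 without it. UPF2, UPF3B and the kinase SMG1 had 0.10, -0.08 and -0.22, and 7 annotated pseudogenes bear the name of SMG1, so its counts are uncertain.

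AGO2 (chromosome 8, 140520156 to 140635619), the Argonaute that can cut its targets, had 144.8 and 116.1 CPM in DKO and 222.7 and 191.6 CPM in control. Both DKO libraries were well below both control libraries, at a log2 fold change of -0.66 (SE 0.20, 95% interval -1.07 to -0.24), which did not pass in edgeR (adjusted p = 0.0649) or limma-voom (adjusted p = 0.0612) but did in DESeq2 (adjusted p = 0.0346). In the fits without 1 library it was -0.53 to -0.80 and passed without control replicate 2 alone (-0.74, edgeR adjusted p = 0.0318). TNRC6A and TNRC6B, the adaptors that carry CCR4-NOT to Argonaute, had 0.21 and -0.22, and none of these 3 genes rose or fell.

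**Figure D2:**
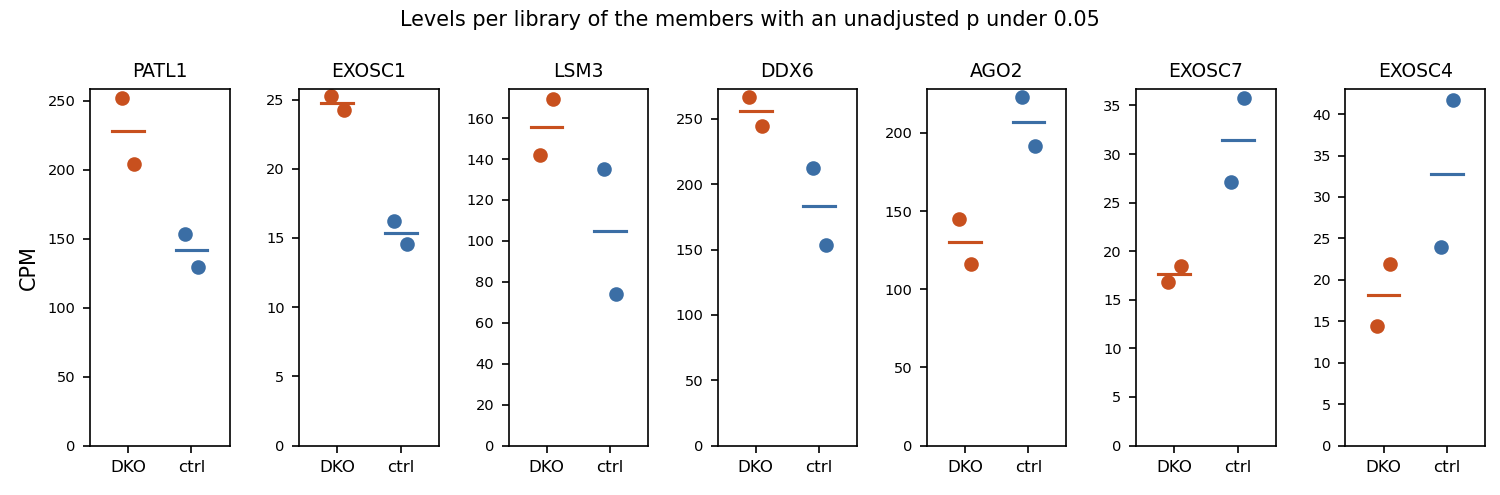
CPM in each of the 4 libraries of the 7 members with an unadjusted edgeR p under 0.05, with replicate 1 left and replicate 2 right in each group and bars at the group means. PATL1, EXOSC1, LSM3 and DDX6 are higher in both DKO libraries than in both control libraries, and AGO2, EXOSC7 and EXOSC4 lower; with ERCC totals the fitted values of LSM3 and DDX6 turn negative.

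Some of the members that differed most lay in stretches of chromosome where other genes differed in the same direction, and others did not. For each gene the median log2 fold change of its 50 nearest tested neighbours, 25 on each side, was taken. Genes near a chromosome end had fewer, such as DCPS with 40. EXOSC4 and AGO2, both on the long arm of chromosome 8, had values of -0.84 and -0.66 beside neighbour medians of -0.89 and -0.83. DDX6 and DCPS, both on the long arm of chromosome 11, had 0.50 and 0.52 beside 0.51 and 0.57, and EXOSC7 had -0.83 beside -0.45. These 5 members (9.26%) were all those with a neighbour median beyond 0.4 in size, which 4.81% of tested genes with a position had. PATL1 (0.70 beside 0.21), EXOSC1 (0.70 beside 0.04) and LSM3 (0.60 beside -0.37) exceeded their neighbours, by 0.49, 0.66 and 0.97. Across the 54 members, the change and the neighbour median correlated at r = 0.67 (Spearman's rho = 0.59), beside r = 0.33 over the 13137 tested genes with a position. The tested genes include ones with far fewer counts than any member, so these correlations are not like for like. All points share the same 4 libraries, and the part of chromosome regions in the members' values was not tested.

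**Figure D3:**
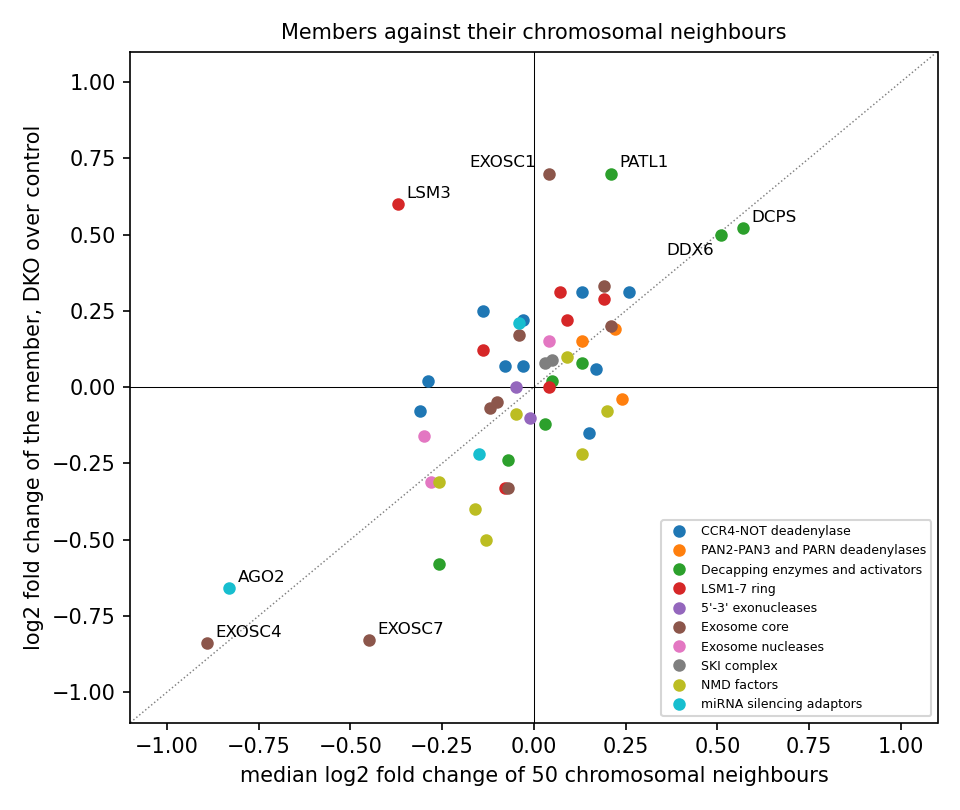
Log2 fold change of each member, DKO over control, against the median log2 fold change of its 50 chromosomal neighbours (fewer near a chromosome end), coloured by complex. EXOSC4, AGO2, DDX6 and DCPS sit near the dotted line of equal values, while LSM3, EXOSC1 and PATL1 sit above it; with ERCC totals, which move the median gene to -0.68, DDX6, DCPS and LSM3 turn negative.

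Levels per length differed far more between the subunits of a complex than between the clones. CPM was divided by the merged exon length in kilobases, which takes account of length alone. Exons that Huh7 cells do not use, GC content and overlapping genes can still affect a comparison between genes. Over the 54 members this level had a range of 1.34 to 74.1 in DKO and 1.94 to 80.1 in control, with medians of 11.3 and 11.4. XRN2 was the highest in both clones, at 74.1 in DKO and 80.1 in control, and its relative XRN1 had 3.17 and 3.20. In CCR4-NOT, the highest level per length was that of CNOT1, at 40.6 in DKO and 38.9 in control, and the lowest that of CNOT6L, at 2.27 and 1.94. In the exosome core, whose subunits are present in equal number in the complex, levels per length had a range of 3.97 (EXOSC7) to 31.2 (EXOSC5) in DKO and 4.60 (EXOSC1) to 32.7 (EXOSC5) in control. The decapping activator PATL1 was the highest of its group in both clones, at 53.3 in DKO and 33.1 in control.

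**Figure D4:**
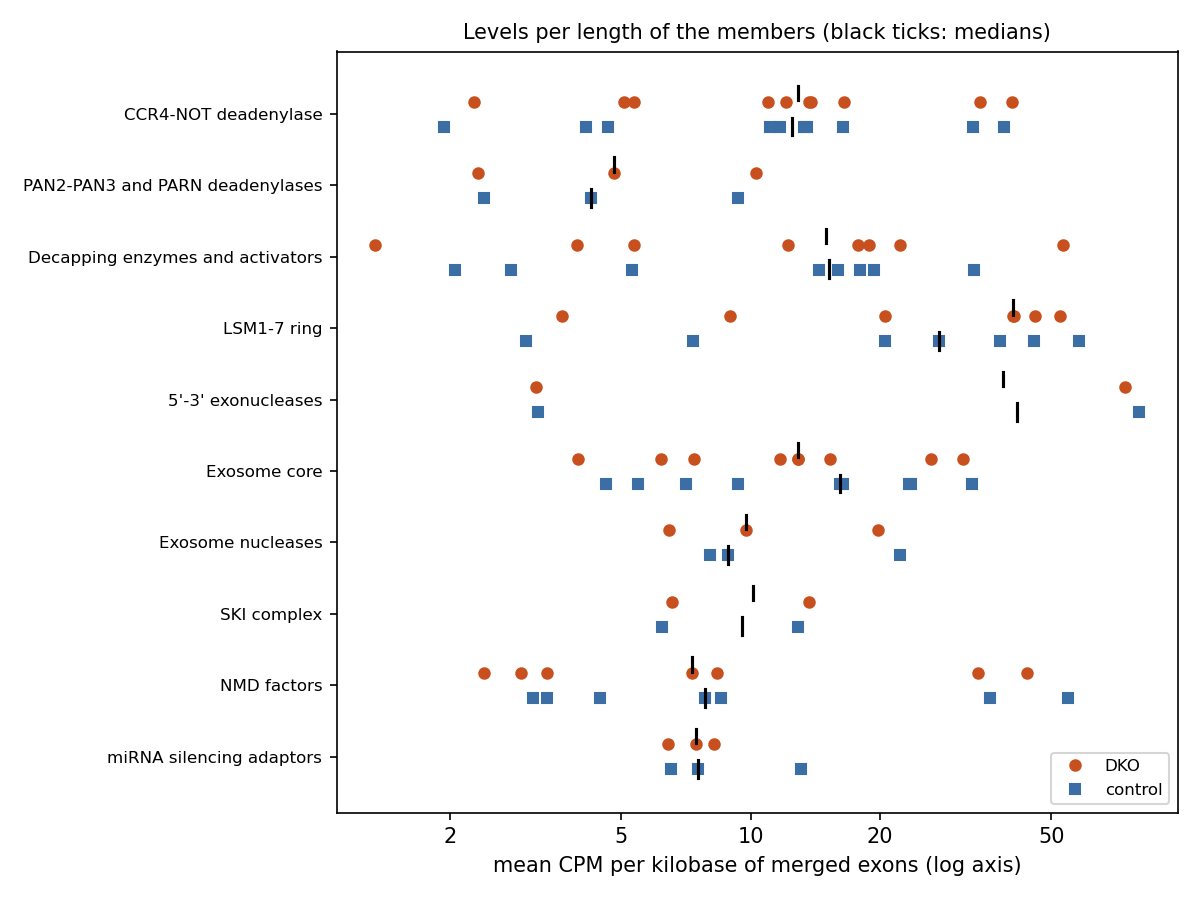
Mean CPM per kilobase of merged exons (log axis) of each member in DKO (circles) and control (squares), with a black tick at the group median. The exonucleases span 3.17 to 74.1 in DKO and 3.20 to 80.1 in control, and in most rows the points of both clones lie close together.

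Several activities are shared by a pair of related genes, and in 5 of 7 such pairs the balance in the DKO libraries did not overlap that in the control libraries. The share of other gene pairs that did so was not taken, so this count has no background to be read against. As a log2 ratio of levels per length, DIS3L over DIS3 was 0.60 in each DKO library and 0.02 and 0.28 in the control libraries. TNRC6B over TNRC6A was -0.22 and -0.20 in DKO and 0.18 and 0.25 in control. By CPM, which takes no account of length, TNRC6B was above TNRC6A in all 4 libraries. CNOT8 over CNOT7 was -0.12 and -0.23 in DKO and 0.22 and 0.36 in control. The clones also did not overlap for DCP1B over DCP1A, at -2.32 and -1.67 in DKO and -1.27 and -1.49 in control, or CNOT6L over CNOT6, at -2.93 and -2.78 in DKO and -2.98 and -3.24 in control. They overlapped for UPF3A over UPF3B, at -0.34 and -0.22 in DKO and -0.52 and 0.75 in control, and for XRN2 over XRN1, at 4.35 and 4.78 in DKO and 4.30 and 5.11 in control. With 2 libraries against 2, the smallest 2-sided exact permutation p is 0.333, so none of these differences was tested. Single genes had libraries that did not overlap in 23.7% and 26.2% of cases, above and below, but these shares are not for ratios of genes.

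For most members, the 2 libraries of a clone differed from each other in the same direction in both clones. From replicate 1 to replicate 2, 25 members were lower in both clones, 16 were higher in both and 13 differed in direction. The log2 difference between the libraries of a clone, taken on log2(CPM + 0.5), correlated between the clones at r = 0.57 (Spearman's rho = 0.60) over the 54 members, and with the GC content of the transcript at r = 0.55 in DKO and 0.75 in control. The median size of this difference was 0.25 in DKO and 0.31 in control, and that of the fold change between the clones was 0.20 (all genes 0.27). The former compares single libraries and the latter is fitted over both libraries of each clone, so these sizes are not like measures. GC content had a range of 34.1 to 61.5% among the members, and its correlation with the fold change between the clones was -0.27. With trends over GC content and length removed, 4 members were called higher (PATL1, DDX6, LSM3 and EXOSC1) and 4 lower (DCP1B, EXOSC4, EXOSC7 and AGO2), when 17.3% of all genes were called.

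**Figure D5:**
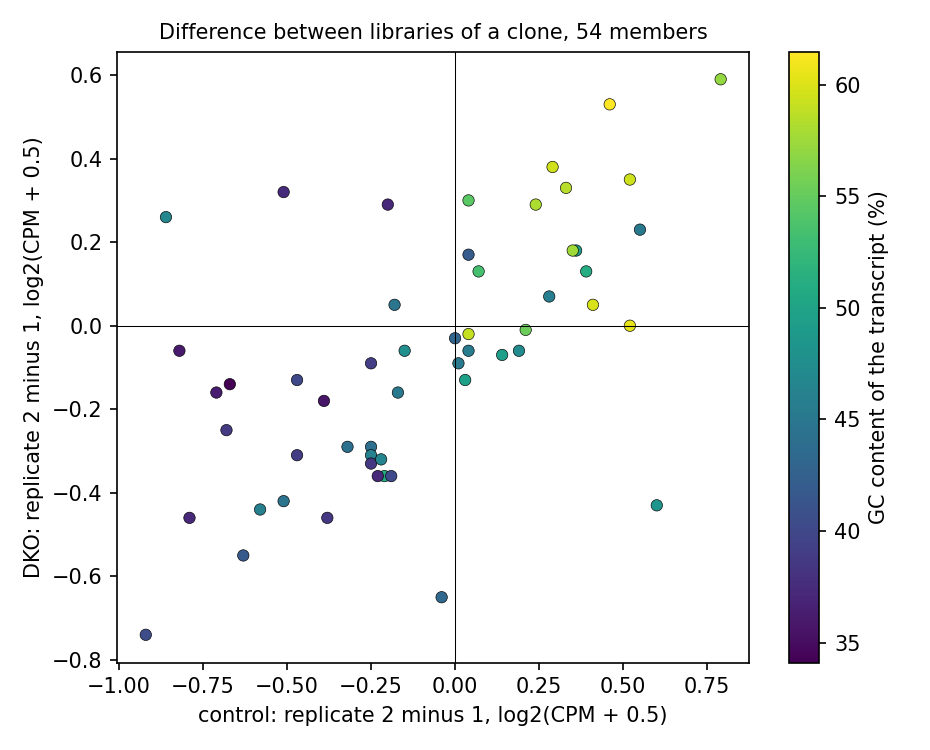
Difference between replicate 2 and replicate 1 within DKO (vertical) and within control (horizontal), in log2(CPM + 0.5), for the 54 members, coloured by transcript GC content in percent. Most points lie in the lower left (25) and upper right (16) of the plot, and transcripts of high GC content lie towards the upper right.

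The other genes of the same pathways were read from lists of 54 further genes, 53 of them tested. Of these 1 rose, 2 fell and 50 did not pass, with a median of 0.03. The called share of 5.66% was close to the 5.37% of all tested genes. The 3 that passed came from the list of exosome cofactors. RBM7, a subunit of the nuclear exosome targeting complex, rose to 23.66 and 19.05 CPM in DKO, against 14.04 and 7.596 CPM in control (1.01, edgeR adjusted p = 0.0440), beside a neighbour median of 0.50. The helicase SKIV2L2, known as MTR4, fell to 63.57 and 67.98 CPM in DKO, against 117.1 and 114.7 CPM in control (-0.80, edgeR adjusted p = 0.0234), and the ribosome rescue factor PELO fell by 0.81 on the log2 scale (edgeR adjusted p = 0.0239). The neighbour median of each was -0.51. All 3 calls were lost with ERCC totals and without either DKO library. The values of largest size in the other lists, none of which passed, were -0.51 for the deadenylase relative ANGEL1, -0.59 for the decapping enzyme NUDT16, -0.59 for the poly(A) polymerase PAPD7, -0.68 for the exon junction subunit RBM8A and 0.18 for AGO4.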

How the data were processed

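RNA was sequenced from 2 libraries of a Huh7 DKO clone and 2 of a control clone; per the labels' protocols, ERCC RNA was added, ribosomal RNA depleted and a strand-keeping kit used. The authors deposited whole-number read counts per gene, without normalization. The submitters' processing notes list the build hg38 and the tools STAR (2.5.3a), featureCounts, Subread (1.6.3) and DESeq2, with no role or order; the annotation, strand setting and multi-mapping rule are not stated there, so overlapping and near-identical genes are uncertain (exons of 30 members overlap another gene, and 10 have a named pseudogene).

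The 92 ERCC rows were left out of library sizes. Genes kept by filterByExpr were tested with edgeR 4.0.16 (R 4.3.3; quasi-likelihood, TMM, group as the only term), with limma 3.58.1 (voom), DESeq2 1.42.0 and other settings as alternatives, checked on simulated data. CPM is computed from the deposited counts on gene totals. Positions, exon lengths, GC content and 3′ UTRs came from GENCODE release 29 (hg38), which matched 40718 gene rows to exactly 1 gene. A count of 3, the detection floor, was 0.292 and 0.183 CPM in DKO and 0.310 and 0.240 CPM in control, for counting error only. Libraries of a clone were not duplicates (chi-square per degree of freedom 27.1 in DKO and 33.6 in control). Since no label names separate cultures, a p-value here reflects library-to-library spread, possibly technical.

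Members and lists were chosen with earlier results of these data known. Named with the value in every library were members past the threshold or at an unadjusted p under 0.05, those of largest change and of highest level per length in each complex, and the main scaffold or nuclease of each.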

Additional observations from a re-analysis of the deposited data

How the results depend on the processing

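Members called higher and lower numbered 0 and 1 in the edgeR fit, 1 and 2 with DESeq2, 0 and 0 with limma-voom, 1 and 3 without a filter on low counts, 4 and 4 with GC content and length offsets, and 0 and 0 with ERCC totals; DESeq2 size factors in edgeR kept 0 and 1. Genes called across the table numbered 718 (5.37% of those tested), with a share of 5.18% in DESeq2 and 5.25% in limma-voom. They numbered 1194 of the 22155 tested without the filter (5.39%), 2316 with the offsets (17.3%) and 329 with ERCC totals (2.46%). Other genes of the pathway called numbered 3, with 8 under the offsets and 0 under ERCC totals. With the replicate number as a block, 9 members were called higher and 8 lower, with 4021 genes (30.1%) called across the table and 13 other genes of the pathway. With the replicate block and the offsets together these were 8, 8, 4401 (32.9%) and 15. The labels state no pairing, and libraries with the same number deviated together from their group means (r = 0.47). Without 1 library, members called higher ranged from 0 to 7, members called lower from 0 to 3, genes called across the table from 218 to 2172, other genes of the pathway from 0 to 7, and the members' median from -0.04 to 0.06; the upper ends of the counts came without control replicate 1. The members' median was -0.62 with ERCC totals, beside -0.68 for all genes.

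Of 288 single-member values under an alternative, 219 kept their direction and side of the threshold, 38 were called in addition, 5 were no longer called and 26 reversed. These 288 values are those of the 24 members named with the value in every library, and the other members are not counted. The 24 were chosen in part for a large change or a low p-value, so they do not stand for all members. Among them, with ERCC totals CNOT1 (-0.59), CNOT7 (-0.32), DCP2 (-0.56), DDX6 (-0.14), LSM2 (-0.50), LSM3 (-0.03), PAN3 (-0.43), PARN (-0.54), SKIV2L (-0.65) and XRN1 (-0.57) reversed, by construction of the shift. With the offsets DCP2 (-0.01), UPF1 (0.16) and XRN1 (-0.04) reversed among these 24, as they did with the block added (-0.00878, 0.16 and -0.04). Some other members reversed under these settings too and are not listed. Without 1 library, the ranges among these 24 that crossed 0 were those of DCP2 (-0.09 to 0.23), EXOSC5 (-0.38 to 0.23), PAN3 (-0.04 to 0.39), SKIV2L (-0.11 to 0.30), UPF1 (-0.36 to 0.22) and XRN1 (-0.33 to 0.41). Ranges of some other members crossed 0 too and are not listed. The cause of the other changes was not tested.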

Other observations

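A list of 27 genes with transcripts that NMD is known to limit was tested in the same fit. The list came from general knowledge, and its members were chosen with earlier results of these data known. Counts are per gene and sum all transcripts of a gene, so they cannot show whether the transcripts that NMD removes changed. In edgeR 0 rose, 0 fell and 27 did not pass, with a median log2 fold change of 0.02 beside 0.00 for all genes. Before adjustment, edgeR gave p under 0.05 to 3 of them, 2 upwards (7.41%, all genes 9.57%) and 1 downwards (3.70%, all genes 10.6%). DESeq2 called 1 higher (SNHG1) and 0 lower, and limma-voom called 0 in either direction. The largest value was that of the snoRNA host gene SNHG1, with 53.64 and 47.35 CPM in DKO and 34.48 and 27.74 CPM in control (0.71, edgeR adjusted p = 0.0523), and the lowest that of SNHG12 (-0.68, edgeR adjusted p = 0.151). Of members chosen after their values were seen, the stress gene ATF4 had 0.01 and the splicing factor genes SRSF2, SRSF3, SRSF6 and SRSF7 had -0.12, -0.02, 0.11 and -0.07.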
